A study of Mus musculus with 12 samples.

Results

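The peaks described here separate 2 groups of offspring that were given a Western diet for 4 weeks and whose mothers differed in diet. The assay was ATAC-seq of mouse aortic endothelial cells (MAECs), in which a transposase cuts and tags open DNA. In the group WDM-WDO the mothers had WD and the offspring WD, and in the group CDM-WDO the mothers had CD and the offspring WD. CD and WD are the submitters' abbreviations, and the title of the series speaks of a maternal high-fat diet and of atherosclerosis in the offspring. M was read as mothers and O as offspring. The comparison bears on whether the diet of the mothers leaves a mark in the chromatin of offspring that meet that diet again. Strain, genotype, sex and age of the mice, and how the cells were isolated, are not given in the sources used here, so a deletion or treatment that all groups share would not be known. A pair of samples stood behind each group, but each group had 1 peak list, and no list separates the samples. Members were the peaks of 1 list that no peak of the other list overlapped by at least 1 bp, on chromosomes 1 to 19 and X. They numbered 13967 of the 26275 WDM-WDO peaks (53.2%) and 6678 of the 18962 CDM-WDO peaks (35.2%). With the longer list cut to the length of the shorter, by −log10 q, the counts were 7290 and 7294. The 12308 WDM-WDO peaks and 12284 CDM-WDO peaks that overlapped served as the background, and the 4 lists of the series, the CDO groups included, held 95734 peaks. Because each group had a single list, differences have no replicate check and no test was made. Ranges in parentheses after a share are 95% Wilson intervals, which cover counting error alone. Open gene ends gave a mixed picture of the labelled cell type. An end of 9 of 20 endothelial receptor and junction genes (45%) was open in each list, against 47.6% of all genes in WDM-WDO and 40.1% in CDM-WDO. The shares were 55% and 55% for endothelial transcription factors and 66.7% and 61.1% for shear stress and vascular tone. They were 60% and 50% for arterial and Notch genes and 35.7% and 28.6% for venous, capillary and lymphatic genes. Cdh5 and Pecam1, which define endothelium, had no open end in either list and 1 shared region each, but neither has a listed start site.

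Open chromatin marks gene starts and enhancers at which transcription factors can bind, and each cell type opens its own set of enhancers. Endothelial cells line the aorta and keep open the genes of their junctions, growth factor receptors and ETS and SOX transcription factors. In atherosclerosis monocytes enter the vessel wall below this lining, become macrophages and take up lipid. Macrophage enhancers are typically opened by PU.1, the product of Spi1, which binds sequences around the letters GAGGAA.

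Gene starts from both sides of the comparison are printed to show the sequence that was open in a single list. All are windows of the RefSeq promoter table (GRCm38.p6), from 250 bases before to 50 bases after a start site, written 5′ to 3′ on the strand of the gene. Capitals mark matches, on either strand, to the 8 short motifs that are spelled out with the results on gene starts. A peak covered at least a part of each window, and a match can lie outside that part.

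The following 4 windows belong to macrophage genes and were under a WDM-WDO-only peak. Those of Ms4a7, with GAGGAA, and Lyz2, with none of the motifs, were also under such a peak and are not printed. Trem2 encodes a lipid-sensing receptor of macrophages, C1qb a chain of complement C1q, Fcgr1 a receptor for antibody and Itgam the integrin CD11b.
Trem2 (chr17:48346151-48346450, plus strand): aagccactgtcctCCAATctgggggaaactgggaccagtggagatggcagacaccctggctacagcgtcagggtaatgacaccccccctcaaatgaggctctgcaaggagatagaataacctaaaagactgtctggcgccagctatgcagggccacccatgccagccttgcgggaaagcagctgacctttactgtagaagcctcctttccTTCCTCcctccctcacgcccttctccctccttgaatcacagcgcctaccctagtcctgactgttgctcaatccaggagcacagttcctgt
C1qb (chr4:136886151-136886450, minus strand): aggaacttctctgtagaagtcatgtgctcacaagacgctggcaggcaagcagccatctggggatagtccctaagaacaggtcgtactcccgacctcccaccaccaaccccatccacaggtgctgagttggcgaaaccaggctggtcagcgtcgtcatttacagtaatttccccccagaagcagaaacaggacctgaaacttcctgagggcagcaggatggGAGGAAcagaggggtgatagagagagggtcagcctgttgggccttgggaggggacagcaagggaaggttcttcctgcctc
Fcgr1 (chr3:96293920-96294219, minus strand): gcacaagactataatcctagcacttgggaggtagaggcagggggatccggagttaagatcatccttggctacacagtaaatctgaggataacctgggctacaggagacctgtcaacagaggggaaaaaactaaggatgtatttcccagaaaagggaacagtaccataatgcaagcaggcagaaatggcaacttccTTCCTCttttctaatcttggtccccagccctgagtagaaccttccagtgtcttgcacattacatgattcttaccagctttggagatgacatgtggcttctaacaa
Itgam (chr7:128062390-128062689, plus strand): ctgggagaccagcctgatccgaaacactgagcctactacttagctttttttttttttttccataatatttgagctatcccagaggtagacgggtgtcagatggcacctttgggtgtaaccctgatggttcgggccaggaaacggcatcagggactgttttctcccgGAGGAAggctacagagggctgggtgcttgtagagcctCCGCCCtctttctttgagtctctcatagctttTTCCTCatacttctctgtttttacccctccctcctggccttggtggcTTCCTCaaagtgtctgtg

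The other 3 windows belong to endothelial genes and were under a CDM-WDO-only peak. That of Notch4, from the arterial and Notch list, was also under such a peak and is not printed. It held GAGGAA and TGACTCA, so the printed windows are no comparison of motifs between the sides. Cldn5 encodes a tight junction protein, Erg an ETS transcription factor of endothelium and Cavin2 a coat protein of caveolae, the small pits of the endothelial membrane.
Cldn5 (chr16:18776597-18776896, plus strand): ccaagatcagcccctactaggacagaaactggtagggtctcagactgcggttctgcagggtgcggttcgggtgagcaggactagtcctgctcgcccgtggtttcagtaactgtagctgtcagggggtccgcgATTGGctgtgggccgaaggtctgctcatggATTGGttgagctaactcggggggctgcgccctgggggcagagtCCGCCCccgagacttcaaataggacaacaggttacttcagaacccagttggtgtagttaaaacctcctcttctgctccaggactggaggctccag
Erg (chr16:95459299-95459598, minus strand): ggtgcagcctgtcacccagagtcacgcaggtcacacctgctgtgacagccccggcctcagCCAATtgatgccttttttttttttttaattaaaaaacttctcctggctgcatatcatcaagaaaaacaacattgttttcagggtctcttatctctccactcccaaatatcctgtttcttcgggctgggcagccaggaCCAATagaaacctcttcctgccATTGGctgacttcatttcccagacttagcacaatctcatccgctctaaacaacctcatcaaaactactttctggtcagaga
Cavin2 (chr1:51288876-51289175, plus strand): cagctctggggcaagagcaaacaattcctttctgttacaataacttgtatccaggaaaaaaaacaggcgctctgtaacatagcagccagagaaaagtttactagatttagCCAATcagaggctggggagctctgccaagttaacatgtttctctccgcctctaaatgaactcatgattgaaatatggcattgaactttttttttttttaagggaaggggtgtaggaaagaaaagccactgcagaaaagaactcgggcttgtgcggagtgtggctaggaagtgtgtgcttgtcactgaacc

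The CDM-WDO list was shorter and rested on lower pileups than the WDM-WDO list. Their peaks covered 11.5 and 17.4 Mb, and the median number of reads piled up at a summit, recovered from the authors' scores, was 31 and 39. The lowest background of a peak, taken as the genome background, was 5.49 reads in CDM-WDO and 6.08 in WDM-WDO. Over the 8570 CDM-WDO peaks that were shared and scored at or above the median in both lists, the number of reads above the local background was 1.51 times as high in WDM-WDO at the median. With the ratio of 0.664 found in the other direction, 6431 of the 13967 WDM-WDO-only peaks (46.0%) would have fallen below the calling limit of the CDM-WDO list. By the scaling of 1.51 none of the CDM-WDO-only peaks would have fallen below that of the WDM-WDO list. This was close to given, since each had passed a similar limit before its reads were scaled up. The lowest pileups called were 15 reads in CDM-WDO and 16 in WDM-WDO. Both ratios come from strong shared peaks and may not hold for weak ones, so neither count shows which absences are real. Read pileups thus differed between the lists along with the number of members, and their part in each gene list below was not tested. A peak's absence from a list shows that none was called there, not that the DNA was closed.

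Most members were weak peaks of their own list. The median −log10 q, the authors' score for confidence in a peak, was 4.01 for WDM-WDO-only and 2.66 for CDM-WDO-only peaks, against 22.0 and 11.8 for the shared peaks of the same lists. Their median widths were 410 and 391 bp, against 812 and 635 bp when shared, and their median summit pileups 28 and 19 reads, against 66 and 44. The shares without a counterpart grew as peaks weakened. With each list cut into deciles by this score, 2 of the 2628 peaks in the strongest decile of WDM-WDO lacked a CDM-WDO peak, and 95.5% in the weakest did. In CDM-WDO 0 of the 1897 peaks in the strongest decile lacked a WDM-WDO peak, and 87.0% in the weakest did. The lowest −log10 q was 1.3 in WDM-WDO and 1.31 in CDM-WDO. At the limit of overlap itself, 57 WDM-WDO-only and 44 CDM-WDO-only peaks lay within 100 bp of a peak of the other list, and 100 and 79 shared peaks overlapped by under 100 bp.

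**Figure D1:**
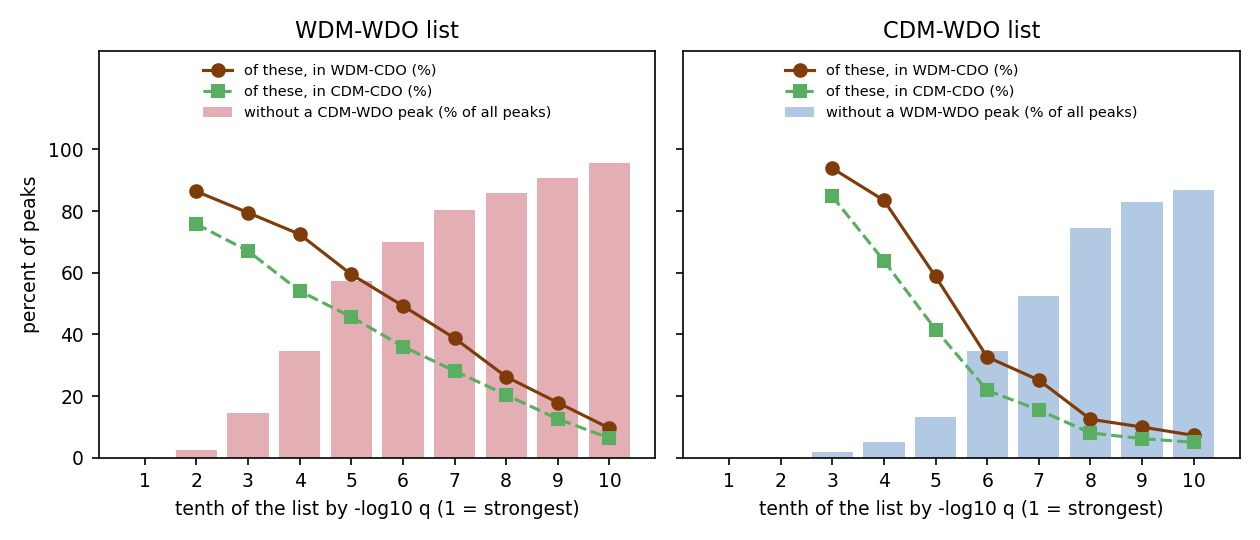
Peaks by strength, with the decile of each list by −log10 q on the x axis and the percent of peaks on the y axis. Bars give the percent of a list's peaks with no overlap in the other list, and points the percent of those peaks that were found in the WDM-CDO and CDM-CDO lists (deciles with fewer than 20 such peaks have no point). The bars climb to 95.5% (WDM-WDO) and 87.0% (CDM-WDO) in the weakest decile, while the points drop to 9.6% and 7.27% for WDM-CDO.

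The members of the WDM-WDO list stood nearer to genes than those of the CDM-WDO list. A start site lay within 1 kb of 1910 WDM-WDO-only peaks (13.7%, 13.1 to 14.3%) and of 407 CDM-WDO-only peaks (6.09%, 5.55 to 6.69%), against 52.5% and 52.2% of shared peaks. Inside genes lay 40.4% and 30.6%. More than 100 kb from any protein-coding gene lay 1416 WDM-WDO-only (10.1%) and 2031 CDM-WDO-only peaks (30.4%). The median distance to the nearest start site was 29947 bp for WDM-WDO-only and 109889 bp for CDM-WDO-only peaks, against 228 and 242 bp for shared peaks. WDM-WDO-only peaks also clustered around shared ones, with 74.4% within 100 kb of a shared peak against 37.4% of CDM-WDO-only peaks. Peaks at the genome background, where no reads nearby raise the threshold, made up 13.4% of WDM-WDO-only and 44.0% of CDM-WDO-only peaks, against 1.93% and 2.91% of shared ones.

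**Figure D2:**
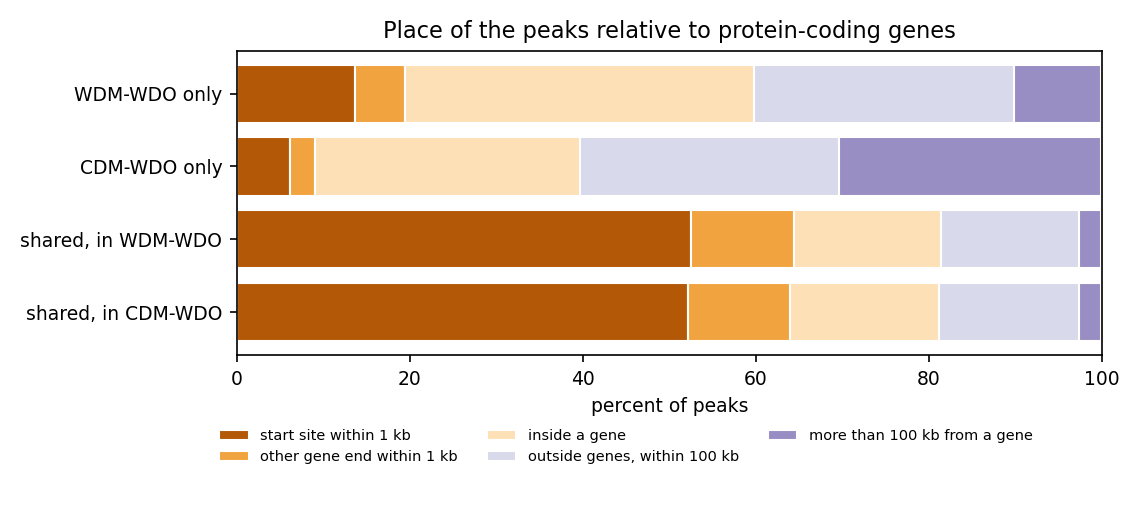
Place of the peaks, with the percent of peaks on the x axis and a bar for each class of peak (members in WDM-WDO only, members in CDM-WDO only, and the shared peaks of each list). Colours give the place relative to protein-coding genes; start sites within 1 kb make up 13.7% and 6.09% of the members and 52.5% and 52.2% of the shared peaks.

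More gene ends were open in WDM-WDO alone than in CDM-WDO alone, by a margin that depended on the setting. A gene end was termed open when a peak lay no more than 1 kb from it. By that measure an end was open in WDM-WDO alone for 2070 of 21627 protein-coding genes (9.57%) and in CDM-WDO alone for 463 (2.14%), with 8219 open in both. Without peaks of high local background the counts were 2018 and 1368, and at equal list length 1606 and 585. The former setting takes peaks out of each list separately. An end can then count as open in CDM-WDO alone because its WDM-WDO peak was taken out. The strongest peak at the end was itself a member for 1989 and 449 of these genes. For the others, 81 and 14, it was a shared peak that reached the end in a single list. Counted at start sites alone, 1619 of 17273 genes (9.37%) were open in WDM-WDO alone and 356 (2.06%) in CDM-WDO alone.

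Peaks of both lists that overlapped were merged into regions and assigned to the genes they lay in, or else to the nearest gene within 100 kb. Of 29103 such regions, 12551 (43.1%) were in WDM-WDO only and 4647 (16.0%) in CDM-WDO only, and the gene lists below are read against these shares.

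Macrophage and monocyte markers had more regions in WDM-WDO only than all genes did, and 10 of their 20 genes had an end open there alone. Of 47 regions near the 20 markers, 33 (70.2%, 56.0 to 81.3%) were in WDM-WDO only, against 43.1% of all regions, and 3 (6.38%) were in CDM-WDO only, against 16.0%. An end was open in CDM-WDO alone for 1 gene and in both lists for 5, where 9.57% and 2.14% of all genes were open in a single list. The 10 were Trem2, C1qb, Fcgr1, Tyrobp, Csf1r, Lyz2, Ms4a7, Adgre1, Itgam and C1qa. Counted list by list, the ends of 15 of the 20 markers were open in WDM-WDO, 6 in CDM-WDO, 7 in WDM-CDO and 6 in CDM-CDO. Over all genes the shares of open ends in these lists were 47.6%, 40.1%, 51.2% and 48.1%, so the markers were above all genes in WDM-WDO (75%) and below them in the other lists (30% to 35%).

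The strongest of these ends belonged to genes of lipid sensing, complement and antibody receptors. The Trem2 peak (chr17:48346351-48347798) reached −log10 q 11.1 with 48 reads, and its summit lay 74 bases after the start site printed above. The C1qb peak (chr4:136885690-136886465) reached 10.1 with 50 reads, 139 bases before the start. At Fcgr1 (chr3:96293555-96294051) the score was 8.97 with 40 reads. Tyrobp, which encodes the signalling partner of Trem2, had a peak of 7.29 with 42 reads. Of these 4 peaks, those at Fcgr1 and Tyrobp were also in WDM-CDO, and none was in CDM-CDO.

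Some macrophage genes had several WDM-WDO-only regions. Itgam had 5, that over its start included, Ms4a7, a membrane protein of macrophages, 3, likewise with its start, and Mertk, a receptor for dying cells, 3 inside the gene, none of them with a CDM-WDO-only region. Spi1, which encodes PU.1, was open at its end in both lists, with 72 reads in WDM-WDO against 37 in CDM-WDO. It had 2 more WDM-WDO-only peaks inside the gene, of −log10 q 14.7 and 9.0. Cd68, a lysosomal protein of macrophages, was open in both with 123 and 65 reads. The single marker with an end open in CDM-WDO alone was Cd163, a haemoglobin scavenger receptor, with 24 reads and −log10 q 3.51. C1qc, Mrc1, Ccr2 and Cx3cr1 had no open end in either list.

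The macrophage peaks were mostly not in the lists of the offspring kept on CD. Of the 33, 6 (18.2%, 8.61 to 34.4%) were in WDM-CDO and 2 (6.06%, 1.68 to 19.6%) in CDM-CDO, against 35.1% and 26.3% of all WDM-WDO-only peaks. Their median −log10 q of 4.32 and median pileup of 28 reads were close to the 4.01 and 28 of all WDM-WDO-only peaks. The names of peaks in both WDO lists carry the tag 12w and those in both CDO lists the tag 08w. What the tag means was not given in the sources used here, so the diet of the offspring and whatever the tag stands for cannot be told apart. Fewer macrophages among the cells and less open chromatin per macrophage cannot be told apart in bulk samples, and the part of other cell types in the results of these lists was not tested.

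Of the other white blood cell lists, that of T and NK cells had a WDM-WDO-only interval above the share of all regions, and T and NK cell peaks were more often present in the CDO lists than macrophage peaks. T and NK cell markers had 26 of 37 regions (70.3%, 54.2 to 82.5%) in WDM-WDO only, and 3 (8.11%) in CDM-WDO only. Of 19 markers, 6 had an end open in WDM-WDO alone, none in CDM-WDO alone and 1 in both. Cd2, an adhesion receptor of T cells, had an end peak of −log10 q 9.14 and 4 WDM-WDO-only regions. Cd3g, a chain of the T cell receptor complex, reached 7.99 with 38 reads, and the coreceptor gene Cd4 5.54 with 39. For the cytokine receptor gene Il7r the end peak of 24.2 was a shared peak that reached the gene in WDM-WDO alone. The T cell factor Tcf7 had 3 WDM-WDO-only regions, the strongest at 16.7. Of these peaks 19 of the 26 (73.1%, 53.9 to 86.3%) were in WDM-CDO and 17 (65.4%, 46.2 to 80.6%) in CDM-CDO. List by list, the ends of 7 of 19 T and NK markers were open in WDM-WDO, 1 in CDM-WDO, 10 in WDM-CDO and 9 in CDM-CDO. These are shares of 36.8%, 5.26%, 52.6% and 47.4%, against the 47.6%, 40.1%, 51.2% and 48.1% of all genes, so CDM-WDO lay farthest below all genes.

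Regions near neutrophil, B cell, and dendritic and mast cell markers were few, and their intervals take in the 43.1% of all regions. Neutrophil markers had 6 of 8 regions (75%, 40.9 to 92.9%) in WDM-WDO only and ends open in 4, 1, 0 and 0 of 12 genes in WDM-WDO, CDM-WDO, WDM-CDO and CDM-CDO. Csf3r, the receptor for granulocyte colony-stimulating factor, had the strongest WDM-WDO-only end at −log10 q 6.98 with 40 reads, while Mpo, Elane and Ly6g had no region in either list. B cell markers had 11 of 19 regions (57.9%, 36.3 to 76.9%) in WDM-WDO only, of which 1 was in WDM-CDO and 0 in CDM-CDO. At equal list length neutrophil and B cell markers each had 33.3% in WDM-WDO only and 33.3% in CDM-WDO only, against 29.4% and 22.0% of all regions, so their shares on the 2 sides were equal. Dendritic and mast cell markers had 11 of 22 regions (50%, 30.7 to 69.3%) in WDM-WDO only and 2 (9.09%) in CDM-WDO only. Over the 5 white blood cell lists together, 87 of 133 regions (65.4%) were in WDM-WDO only and 11 (8.27%) in CDM-WDO only, against 43.1% and 16.0% of all regions, and most of the 87 came from the macrophage and the T and NK cell lists. An end was open in WDM-WDO alone for 23 of the 77 genes and in CDM-WDO alone for 1, against 9.57% and 2.14% of all genes.

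Smooth muscle markers were rarely open in either list, and fibroblast markers more often. Of 16 smooth muscle and pericyte markers, 1, Smtn, was open at an end, and it was open in both lists; Acta2 and Myh11 were not. The ends of 5 of these 16 were open in each CDO list. No end of the 12 epithelial and mesothelial or the 12 striated muscle markers was open in either WDO list. Of 14 fibroblast markers 2 had an end open in WDM-WDO alone (Col1a1 and Postn), 1 in CDM-WDO alone (Thy1) and 2 in both (Col1a2 and Gsn). They had 9 of 17 regions in WDM-WDO only and 4 in CDM-WDO only.

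**Figure D3:**
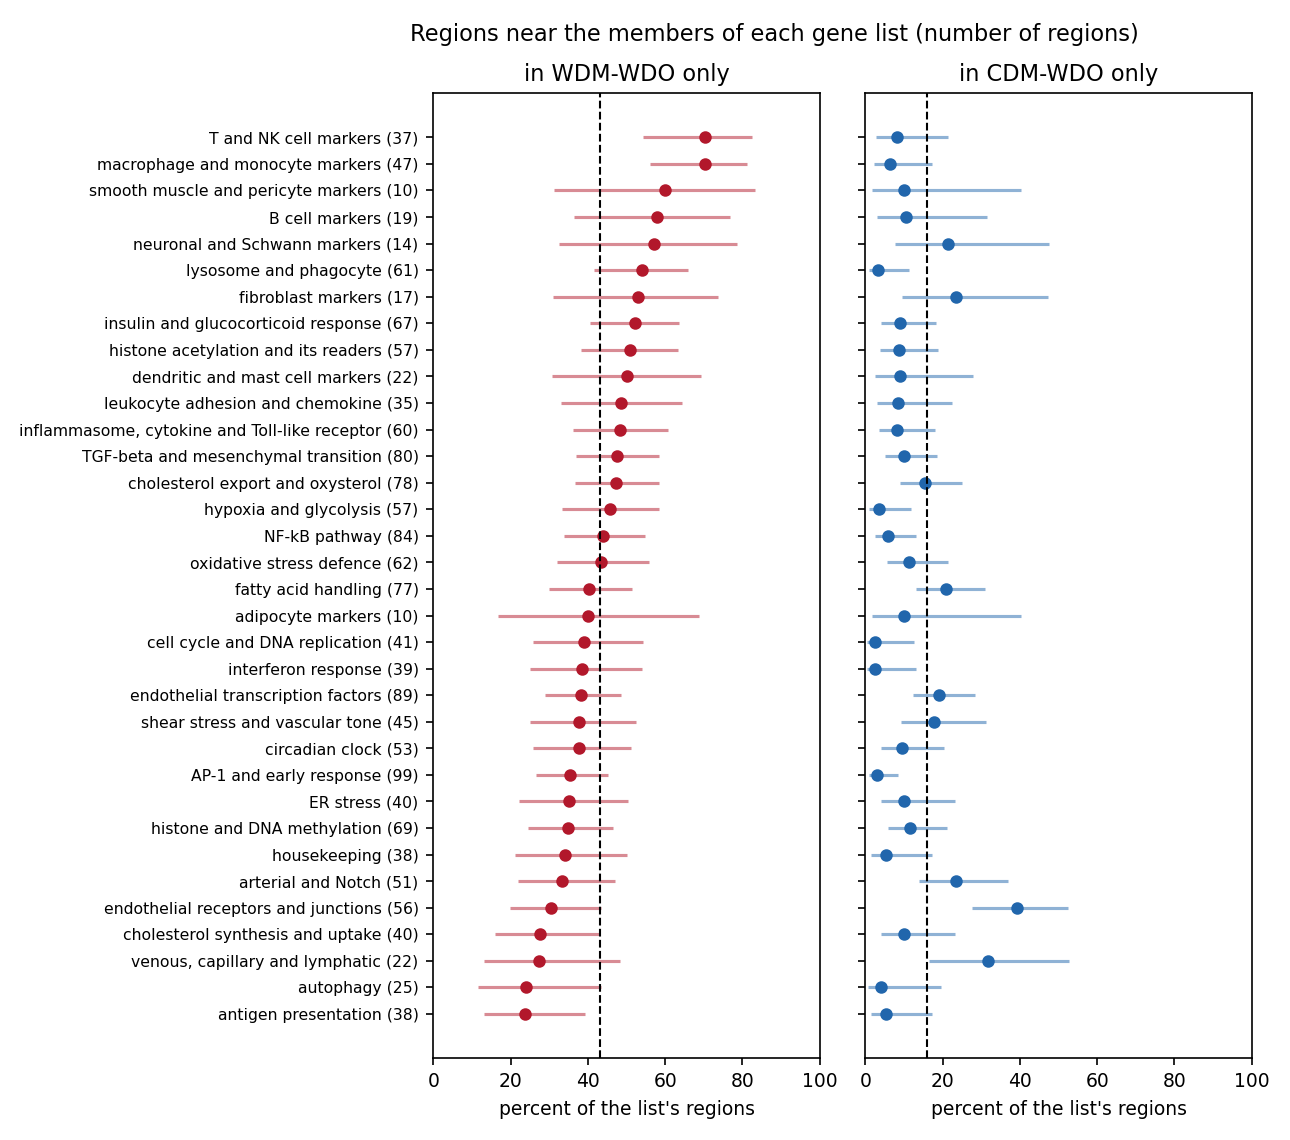
Regions near 34 gene lists with 10 or more regions, with the percent of a list's regions on the x axes and 95% Wilson intervals as lines. The left panel gives regions in WDM-WDO only and the right panel those in CDM-WDO only; dashed lines mark all assigned regions (43.1% and 16.0%), and numbers in parentheses count regions. T and NK cell markers (70.3%) and macrophage markers (70.2%) stand highest on the left, endothelial receptors and junctions (39.3%) on the right.

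Endothelial receptors and junctions leaned the other way. The list had 22 of 56 regions (39.3%, 27.6 to 52.4%) in CDM-WDO only, against 16.0% of all regions, and 17 (30.4%, 19.9 to 43.3%) in WDM-WDO only, against 43.1%. Venous, capillary and lymphatic genes had 7 of 22 (31.8%, 16.4 to 52.7%) in CDM-WDO only, arterial and Notch genes 12 of 51 (23.5%), endothelial transcription factors 17 of 89 (19.1%), and genes of shear stress and vascular tone 8 of 45 (17.8%). The intervals of the last 3 lists take in the share of all regions. With −log10 q of at least 3 the arterial share was 10.5%, against 9.43% of all regions, and with lists of equal length the WDM-WDO-only share of receptors and junctions was 18.8%, against 29.4%. Over the 5 endothelial lists 66 of 263 regions (25.1%) were in CDM-WDO only and 91 (34.6%) in WDM-WDO only.

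The CDM-WDO-only regions of junction and receptor genes were spread over many genes. Cldn5 had 3 of them, the strongest 29908 bp from the gene with −log10 q 11.4 and 44 reads, and the printed start was covered by a peak of 4.38 with 34 reads. Cdh5, which encodes VE-cadherin, the adhesion protein of endothelial junctions, had 3 CDM-WDO-only and 2 WDM-WDO-only regions. Eng, a TGF-beta coreceptor, had 2 and 0, with peaks of 8.32 and 4.24 inside the gene. Emcn, a surface sialoprotein of endothelium, also had 2 and 0. Kdr, the main VEGF receptor gene, had 2 and 3, and S1pr1, the receptor for sphingosine-1-phosphate, 3 and 5, so the direction was not the same for every gene. Icam2 was the single gene of this list with an end open in WDM-WDO alone, at 8.85 with 44 reads.

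Endothelial transcription factors differed from gene to gene. Erg had 3 CDM-WDO-only regions and 1 WDM-WDO-only region, Sox17 also 3 and 1, and Sox7 1 and 0. Ets1 had 3 CDM-WDO-only and 9 WDM-WDO-only regions, Elk3 0 and 5, Fli1 0 and 3 and Ets2 0 and 3. Ets1, Fli1 and Ets2 are used by white blood cells as well as by endothelium. The part of either cell type in the regions of this list was not tested. The flow-responsive factors Klf2 and Klf4 were open at an end in both lists, with 259 and 230 reads for Klf2 and 92 and 76 for Klf4 in WDM-WDO and CDM-WDO.

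Genes of vascular tone showed single ends in each direction. Cavin2 had 3 CDM-WDO-only regions and no other region, and the peak over its start (chr1:51288856-51289766) reached −log10 q 9.57 with 37 reads and was in both CDO lists. Gucy1a1, a subunit of the nitric oxide receptor, was open in CDM-WDO alone at 2.48 with 20 reads. Nos3, the endothelial nitric oxide synthase gene, was open in WDM-WDO alone at 15.1 with 61 reads (chr5:24383210-24383751), and so were the cyclooxygenase genes Ptgs2 at 22.4 with 57 reads and Ptgs1 at 7.92 with 44. The Nos3 and Ptgs2 peaks were present in both CDO lists, so CDM-WDO was the list in which no peak was called.

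Where an end was open in both lists, endothelial receptors had relatively more reads in CDM-WDO. The pileup of the strongest end peak was higher in CDM-WDO for 5 of 8 genes of the list, against 452 of 8219 genes in all (5.5%). The median ratio of CDM-WDO to WDM-WDO reads was 1.1 for these 8 genes and 0.684 over all genes. Tie1, an angiopoietin coreceptor, had 49 reads in CDM-WDO and 35 in WDM-WDO, Clec14a, an endothelial lectin, 42 and 27, the junction gene Esam 41 and 28, and Kdr 36 and 31. Flt1 had 29 and 28. Eng and S1pr1 had fewer reads in CDM-WDO, at 29 and 44 and at 35 and 53. The other 4 endothelial lists had 1 gene each with more reads in CDM-WDO, among 4 to 10 genes, and median ratios of 0.689 to 0.917. The netrin receptor gene Unc5b of the arterial list had 65 and 32 reads. For the 5 macrophage markers open in both lists the median ratio was 0.528, and none had more reads in CDM-WDO.

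CDM-WDO-only peaks near endothelial receptors and transcription factors were found in WDM-CDO more often than CDM-WDO-only peaks in all. Of the 22 near receptors and junctions, 13 (59.1%, 38.7 to 76.7%) were in WDM-CDO and 6 (27.3%, 13.2 to 48.2%) in CDM-CDO, against 17.7% and 11.9% of all CDM-WDO-only peaks. Of the 17 near transcription factors, 10 (58.8%) and 7 (41.2%) were. The venous, capillary and lymphatic list had 1 of 7 (14.3%) and 2 of 7 (28.6%). The receptor peaks were stronger than most, with a median −log10 q of 4.31 and 28 reads against 2.66 and 19, and in the decile of the list from 4.29 to 5.89 the shares were 32.7% and 21.9%. WDM-CDO, which shared neither diet with CDM-WDO, held more of the receptor peaks than CDM-CDO did. It also held more of all CDM-WDO-only peaks, and it is the longer list, with 28319 against 22178 peaks.

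**Figure D4:**
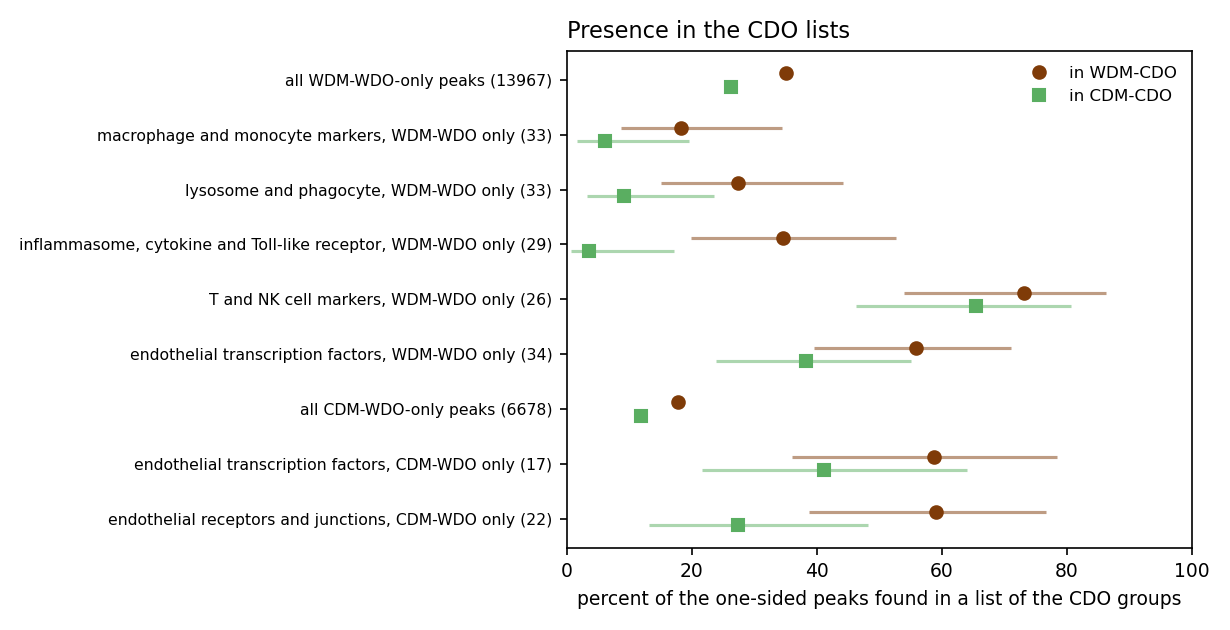
Presence of member peaks in the CDO lists, with the percent of the peaks found there on the x axis, 95% Wilson intervals as lines and the number of peaks in parentheses. Circles give WDM-CDO and squares CDM-CDO. Macrophage peaks in WDM-WDO only lie low (18.2% and 6.06%), T and NK cell peaks high (73.1% and 65.4%).

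Over all members, more were found in WDM-CDO than in CDM-CDO on both sides of the comparison. Of the WDM-WDO-only peaks 4902 (35.1%) were in WDM-CDO, 3667 (26.3%) in CDM-CDO, while 8520 (61%) were in neither. In WDM-CDO but not CDM-CDO were 1780, and the reverse held for 545. Of the CDM-WDO-only peaks 1185 (17.7%) were in WDM-CDO, 793 (11.9%) in CDM-CDO and 5243 (78.5%) in neither, with 642 and 250 in a single CDO list. The order was thus the same for members whose mothers had CD and for those whose mothers had WD. WDM-CDO is also the longer of the CDO lists, with 28319 against 22178 peaks. When it was cut to equal length, a choice made after the data were seen, the shares in WDM-CDO were 30.8% and 13.4%. At start sites 69.4% and 59.8% of WDM-WDO-only and 62.4% and 49.4% of CDM-WDO-only peaks were in WDM-CDO and CDM-CDO.

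Genes of inflammatory signalling had few CDM-WDO-only regions, and their WDM-WDO-only shares were near that of all genes. AP-1 and early response genes had 35 WDM-WDO-only (35.4%) and 3 CDM-WDO-only regions (3.03%) of 99, NF-kB pathway genes 37 (44.0%) and 5 (5.95%) of 84, and interferon response genes 15 (38.5%) and 1 (2.56%) of 39. Most of their ends were open in both lists, 20 of 26, 17 of 23 and 16 of 22. So were those of 38.0% of all genes, 15 of 20 housekeeping genes and 15 of 16 ER stress genes. Among the ends in WDM-WDO alone were Tnip3, an inhibitor of NF-kB signalling, at −log10 q 14.9 with 51 reads, the AP-1 partner gene Batf at 13.7 with 53, Oas2, a sensor of viral RNA, at 14.1 with 56, and the interferon-induced gene Ifit1 at 11.4 with 46. Nfkb1, a subunit gene of NF-kB, had an end open in CDM-WDO alone at 3.71 with 28 reads and 5 WDM-WDO-only against 2 CDM-WDO-only regions. Tnfaip3, a brake on NF-kB, had 9 and 1. Without peaks of high local background the CDM-WDO-only shares of the AP-1 and NF-kB lists were 17.5% and 25%, against 21.2% of all regions. At that setting CDM-WDO-only peaks rose from 6678 to 7863 although the CDM-WDO list shortened from 18962 to 17766 peaks. Some of them had thus overlapped a WDM-WDO peak that was taken out, so the setting cannot show whether the low shares hold.

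Inflammasome, cytokine and Toll-like receptor genes had 29 of 60 regions (48.3%, 36.2 to 60.7%) in WDM-WDO only and 5 (8.33%) in CDM-WDO only. At that setting their CDM-WDO-only share was 24.6%. Il10, an anti-inflammatory cytokine gene, had 6 WDM-WDO-only regions, the farthest 31938 bp from the gene, and none in CDM-WDO only, and its receptor gene Il10ra had 4 and 0. Their strongest end peaks reached −log10 q 7.17 with 52 reads and 10.6 with 56, and neither was in a CDO list. Il1rn, the interleukin 1 receptor antagonist, was open at 8.81 with 35 reads, and Casp1, the inflammasome caspase, at 4.86 with 24. Of the 29 peaks 10 were in WDM-CDO and 1 in CDM-CDO (3.45%, 0.611 to 17.2%). Tlr7, a Toll-like receptor gene, was the single gene of this list with an end open in CDM-WDO alone, at −log10 q 3.21 with 21 reads. Tnf was open in both lists, with 115 reads in WDM-WDO and 35 in CDM-WDO. Among genes of leukocyte recruitment, Cxcl10 and Ccl7 had ends open in WDM-WDO alone at 9.77 and 5.93, and Cx3cl1, the fractalkine gene, in CDM-WDO alone at 3.24. Vcam1 had no region in either list.

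Lipid genes were divided by role. Lysosome and phagocyte genes had 33 of 61 regions (54.1%, 41.7 to 66.0%) in WDM-WDO only and 2 (3.28%, 0.904 to 11.2%) in CDM-WDO only. Cd9, a tetraspanin of foam cells, had 6 and 1, and Spp1, which encodes osteopontin, was open at its start in WDM-WDO alone at −log10 q 4.74 with 28 reads. The strongest WDM-WDO-only peak of this list, inside Grn, the progranulin gene (chr11:102432142-102432851), reached 42.5 with 130 reads. Ctss, a lysosomal protease gene, was open at its end in CDM-WDO alone at 2.72, but had 2 WDM-WDO-only peaks of 15.7 and 10.1 beside it. Without peaks of high local background the CDM-WDO-only share of the list was 16.4%, against 21.2% of all regions. Several of these genes are highly used by macrophages, whose part in the regions of this list was not tested.

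Cholesterol export and oxysterol genes had 37 of 78 regions (47.4%, 36.7 to 58.4%) in WDM-WDO only and 12 (15.4%) in CDM-WDO only, both near the shares of all regions. With regions assigned within 10 kb the second share was 3.7%, against 13.3% of all regions. Abca1, the cholesterol exporter gene, had 11 WDM-WDO-only, 2 CDM-WDO-only and 7 shared regions. Nceh1, a cholesteryl ester hydrolase gene, had 5 and 1, Npc2, a lysosomal cholesterol carrier, 4 and 0, and Stard4, a sterol carrier gene, 0 and 4. The ends of 14 of the 18 genes were open in both lists, against 38.0% of all genes. Fatty acid genes had 31 of 77 (40.3%) in WDM-WDO only and 16 (20.8%, 13.2 to 31.1%) in CDM-WDO only. Pparg, the lipid-sensing nuclear receptor, had 6 and 0 and the fatty acid carrier Fabp5 5 and 0, while the scavenger receptor and fatty acid transporter Cd36 had 3 and 5 and the coactivator Ppargc1a 2 and 4. Cholesterol synthesis and uptake genes had the fewest, 11 of 40 (27.5%, 16.1 to 42.8%) and 4, with 15 of 22 ends open in both. Srebf1, a regulator of lipid synthesis, and Sc5d, an enzyme of cholesterol synthesis, had an end open in WDM-WDO alone at 8.53 and 19.9. Both peaks were in both CDO lists. A start site of Srebf1 was open in both WDO lists, and that of Sc5d in WDM-WDO alone.

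Across the 38 gene lists, the interval of the WDM-WDO-only share lay above that of all regions for 2, macrophage and T and NK cell markers, and below it for 2, antigen presentation (23.7%) and cholesterol synthesis and uptake. For the CDM-WDO-only share it lay above for 3, which were endothelial receptors and junctions, venous, capillary and lymphatic genes, and striated muscle markers with 4 of 6 regions. It lay below for 6, which were the NF-kB, AP-1, interferon, lysosome, hypoxia and cell cycle lists. These intervals treat several regions of the same gene as independent and make no allowance for the number of lists. An interval apart from all regions is thus a description and no test. Housekeeping genes had 13 of 38 regions (34.2%) in WDM-WDO only and 2 in CDM-WDO only. Of their ends 15 of 20 were open in both, against 38.0% of all genes.

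The strongest members at gene ends lay mostly outside the gene lists. In WDM-WDO they were Esco2, a cohesin acetyltransferase gene, at −log10 q 46.2 with 95 reads (chr14:65833708-65834180), Atg4d, an autophagy protease gene, at 45 with 99, the splicing factor gene Snrpc at 44.2 with 86 and the DNA repair nuclease gene Fan1 at 42.0 with 86. Naa30, Eif4ebp2, Ercc3, Psmc4, Idua and Dgkq followed at 37.2 to 39.1, the last pair sharing a peak. In CDM-WDO they were Zcchc14 at 25.7 with 72 reads (chr8:121652866-121653248), Slc30a1, a zinc exporter gene, at 23.0 with 62, Gatad1 at 17.6 and Slc25a33, a mitochondrial nucleotide carrier gene, at 16.5. Thap4 and Atg4b shared a peak of 16.0, and Dda1, Rnf216, Sh3tc2 and Znfx1 stood at 12.4 to 14.8. Esco2, Ercc3, Gatad1 and Sh3tc2 had these peaks away from a listed start site. All of these WDM-WDO peaks were also in WDM-CDO, and all but that of Eif4ebp2 in CDM-CDO. The CDM-WDO peaks were all in both CDO lists, so most of these peaks lacked a call in a single list of the series.

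Away from gene ends, the CDM-WDO-only peaks included regions near endothelial genes. Fgd5, a guanine exchange factor gene of endothelium, lay 6177 bp from a peak of −log10 q 20.4 with 60 reads, and Hes1, a Notch target, 56193 bp from one of 19.1 with 59. Others were nearest to Ssu2 (21.1), Sec14l1 (20.1 and 19.6) and the actin bundler gene Fscn1. In WDM-WDO, the strongest besides Grn and a pair of much higher peaks nearest to Lrrc4c (314.0) and Ly6c2 (213.0) were 61262 bp from Gm15319 (47.4), inside Piwil2 (44.9), 3369 bp from Dag1 (41.2), inside Rbm47 (39.5) and inside Mrps27 (38.9). Scaled by the ratios above, 82 WDM-WDO-only (0.587%) and 403 CDM-WDO-only peaks (6.03%) would have reached at least 2 times the calling limit of the other list. The higher ratio of the CDM-WDO direction by itself favours this order.

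The genes with most members were often long. Foxp1, a forkhead transcription factor gene, had 19 WDM-WDO-only, 2 CDM-WDO-only and 10 shared regions over 597 kb. Lpp, a focal adhesion protein gene, had 13 and 2, Snx29 13 and 3, and Pde4d, a cyclic AMP phosphodiesterase gene, 12 and 4. Tbc1d1, a regulator of glucose transporter traffic, had 11 regions in WDM-WDO only and no other. In CDM-WDO the leading genes were overlapping protocadherin spans on chromosome 18 with up to 14, then the neuronal adhesion genes Cntn5 with 10 and 3 and Nrxn3 with 8 and 0, and the lipoprotein receptor gene Lrp1b with 9 and 2. Cntn5, Nrxn3 and Lrp1b had no shared region, and their spans run from 1271 to 2058 kb.

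The sequence of gene starts differed between the classes. Of 21019 windows, 1570 were under a WDM-WDO-only peak, 295 under a CDM-WDO-only peak, 7484 under a shared peak, 295 under a shared peak that reached them in a single list and 11375 under none. CCGGAA, the core of ETS factor sites, was in 28.7% (26.5 to 30.9%) of the WDM-WDO-only and 14.6% (11 to 19.1%) of the CDM-WDO-only windows, against 34.3% of shared windows, 7.54% of those without a peak and 18.9% of all. GGGCGG, the core of Sp factor sites, ran the other way, at 53.1% (50.6 to 55.5%) and 67.8% (62.3 to 72.9%), with 71.3% of shared and 46.6% of all windows. The median GC content was 57.7% and 64.7%. CCAAT was in 33.8% and 31.5% (all windows 38.5%), TGACTCA, the AP-1 site, in 5.22% and 3.05% (4.69%), and GAGGAA in 29.2% and 26.8% (27.2%). GCGCATG was in 5.29% and 4.75% (4.83%), CACGTG in 10.8% and 7.12% (7.91%) and TATAAA in 9.17% and 4.75% (12.7%). All were searched on both strands, and none of the 8 contains another. Of the 6 macrophage marker windows under a WDM-WDO-only peak, those of Trem2, C1qb, Fcgr1, Ms4a7 and Itgam held GAGGAA and that of Lyz2 did not. A match describes the letters of a window and is not a binding site.

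MicroRNA genes were among the members. A WDM-WDO-only peak lay within 1 kb of 32 of 1005 hairpins in the RefSeq table, a CDM-WDO-only peak near 7, and peaks of both lists near 77. For comparison, 2070 of 21627 protein-coding genes (9.57%) had an end open in WDM-WDO alone and 463 (2.14%) in CDM-WDO alone. The hairpin counts are thus no sign that microRNA genes stand out among the members. The mature sequences of 4 that are known from vessels or immune cells are printed with the seed, bases 2 to 8, in capitals. They were chosen after the values were seen, and their seeds all differ.
miR-155-5p: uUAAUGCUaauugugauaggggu
miR-17-5p: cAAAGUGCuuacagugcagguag
miR-10a-5p: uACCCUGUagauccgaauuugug
miR-130b-3p: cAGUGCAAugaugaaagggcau
Mir155, induced in activated macrophages, lay under a WDM-WDO-only peak (chr16:84713967-84714282) of −log10 q 4.41 with 28 reads that was in neither CDO list. Mir17 and Mir10a had WDM-WDO-only peaks of 4.64 with 29 reads and 3.91 with 30, both also in WDM-CDO and not in CDM-CDO. Mir130b and its neighbour Mir301b shared a CDM-WDO-only peak of 3.5 with 26 reads that was in both CDO lists.

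Members were not spread evenly over the chromosomes. On chromosome X 457 of 752 CDM-WDO peaks (60.8%, 57.2 to 64.2%) had no WDM-WDO counterpart, while the share on the autosomes ran from 18.3% (chromosome 11) to 45.3% (chromosome 3). The WDM-WDO-only share was 49.3% on X and 46.5 to 56.6% on the autosomes. X held 3.97% of the CDM-WDO peaks, 2.22% of the WDM-WDO peaks and 3.09% and 3.05% of the WDM-CDO and CDM-CDO peaks. Of the 457, 60.6% were at the genome background, against 44.0% of all CDM-WDO-only peaks, and 13.6% and 9.85% were in WDM-CDO and CDM-CDO. Chromosomes 11 and 19, with the lowest CDM-WDO-only shares (18.3% and 19.8%), also had low shares of WDM-WDO-only peaks at 46.5% and 49.6%.

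**Figure D5:**
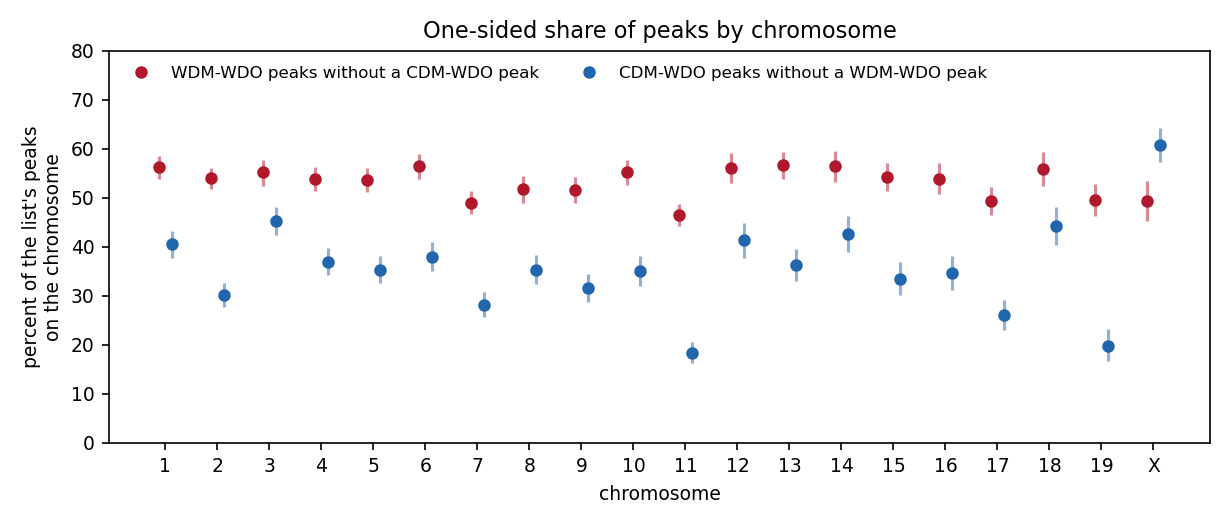
Members by chromosome, with the chromosome on the x axis and the percent of a list's peaks on it that lack a counterpart on the y axis; lines are 95% Wilson intervals. CDM-WDO-only shares are highest on X (60.8%) and lowest on chromosome 11 (18.3%), while WDM-WDO-only shares stay between 46.5% and 56.6%.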

How the data were processed

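The 8 ATAC-seq samples of the series fall into 4 groups of 2, and the 4 H3K27ac samples were not analysed here. Each group had 1 narrowPeak list. Pooling of samples before calling and any shift of cut positions are not given in the sources used here. Per the submitters' processing notes the tools were MACS2 2.2.9.1, Bowtie2 2.4.5, deepTools 3.5.4, FastQC 0.12.1, SAMtools 1.13 and Trim Galore 0.6.10, with the build GRCm38 (mm10). The fold enrichment of each peak is a ratio as the authors deposited it. The −log10 p and −log10 q values are likewise the scores the authors deposited. Depth per sample is unknown, since the lists hold no read totals.

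Overlaps were computed in Python 3.11.15 (numpy 2.4.6, pandas 2.3.3, scipy 1.17.1) on chromosomes 1 to 19 and X, and 3 to 8 peaks a list on other chromosomes were left out. Summit pileups were recovered as the whole number of reads that gives both fold and p under a Poisson background, and matched 100% of peaks at a relative tolerance of 0.0001. Recovery and overlap were tested on simulated data: all of 1879 pileups and 200 of 200 displaced peaks were found. Gene spans (21627 genes) and start windows came from RefSeq tables of GRCm38.p6, and all 688 members of 38 gene lists matched. Per direction, the named genes were the 10 strongest at gene ends, away from them and over the calling limit, the 10 with most regions, up to 4 per list with an end open in a single list, and endothelial, macrophage and lipid genes with 3 or more members. Other genes named from the lists were chosen after their values were seen. Members, lists and rules were chosen with earlier results of these data known. Reads at ends open in both lists, list sums and microRNAs were added after the data were seen.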

Additional observations from a re-analysis of the deposited data

How the results depend on the processing

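No paired analysis was possible because each group had 1 peak list, and for the same reason no sample could be left out. Requiring −log10 q of at least 3 left 2952 CDM-WDO-only peaks, of which 31.4% and 21.8% were in WDM-CDO and CDM-CDO (47.2% and 35.9% of WDM-WDO-only peaks), and 3 lists lay below all regions in CDM-WDO only. Lists of equal length left 7290 WDM-WDO-only and 7294 CDM-WDO-only peaks, with 52.2% and 39.1% of them and 21.0% and 14.6% of CDM-WDO-only peaks in WDM-CDO and CDM-CDO. An overlap of 50% gave 41.1%, 32.0%, 32.2% and 25.3%, and a summit inside the other peak 36.8%, 27.9%, 20.7% and 14.4%, in the same order. Without peaks of high local background (at least 3 times the genome background), 1368 gene ends were open in CDM-WDO alone, 29.7% and 24.0% of CDM-WDO-only peaks were in WDM-CDO and CDM-CDO, 2 lists lay below, and the CDM-WDO-only shares of the AP-1, NF-kB, inflammasome and lysosome lists were 17.5%, 25%, 24.6% and 16.4%. Without peaks of high local background CDM-WDO-only peaks rose to 7863, since some shared peaks lost a WDM-WDO counterpart that was taken out. How far this made up the moves at that setting, and what caused the others, was not tested. A gene-end window of 5 kb gave 696 such ends, and assignment within 10 kb gave 4 lists above in WDM-WDO only. With the CDO lists at equal length the shares in WDM-CDO were 30.8% and 13.4%, and on the autosomes alone 4 lists lay below in WDM-WDO only; both alternatives were added after seeing the data. Among the main results, 28 of 84 recomputed values were counted as moved. For 16 of the 38 lists the share in each direction was recomputed under 7 alternatives, and 203 of these 224 values stayed within the main interval. The intervals of lists with few regions are wide (neutrophil markers, 40.9 to 92.9%), so staying inside them shows little. The macrophage share in WDM-WDO only ran from 60.0 to 71.4%, that of T and NK cell markers from 57.7 to 76.9%, and the CDM-WDO-only share of endothelial receptors and junctions from 36.1 to 47.9%, each above all regions under all 7; neutrophil markers fell to 33.3% at equal list length, with few regions, and as many were in CDM-WDO only. The calling limit bears on both directions: absence of a call at 15 or 16 reads, the lowest pileups called, is not absence of open chromatin.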

Other observations

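Of all assignments of regions to genes, 41.6% were in WDM-WDO only and 15.5% in CDM-WDO only. Olfactory receptor genes had 61 of 172 (35.5%) in WDM-WDO only and 97 (56.4%) in CDM-WDO only, vomeronasal receptor genes 21 (28.8%) and 42 (57.5%) of 73, and protocadherin genes 39 (28.1%) and 77 (55.4%) of 139. The CDM-WDO-only shares of these 3 families were thus above that of all genes, and a region in overlapping protocadherin spans counts for each of them. Zinc finger protein genes were below all genes on both sides, with 205 (36.3%) and 59 (10.4%) of 565, but 65 of their 397 ends (16.4%) were open in WDM-WDO alone, against 9.57% of all genes. Ribosomal protein genes had 77 of 97 ends (79.4%) open in both lists, against 38.0% of all genes, and 4 (4.12%) in WDM-WDO alone.

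The CDM-WDO-only share rose with gene length from 10 kb upward, but was higher below 10 kb than from 10 to 30 kb. It was 13.6% of the region assignments of genes under 10 kb, 9.45% from 10 to 30 kb, 12.6% from 30 to 100 kb, 19.4% from 100 to 300 kb, 35.1% from 300 to 1000 kb and 60.0% for the 59 genes of 1000 kb or more. The WDM-WDO-only share ran from 33.4% to 48.7% over the same classes.

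A pair of WDM-WDO-only peaks far outweighed all others. The peak at chr2:98666967-98667301 had 737 reads over a local background of 118.0 (−log10 q 314.0), and its nearest gene, Lrrc4c, lay 1035295 bp away. That at chr15:75086693-75086951, 21210 bp from Ly6c2, had 331 over 29.8 (213.0). The median local background of WDM-WDO-only peaks was 8.82 reads. No filter for regions of excess signal was applied here, and what these peaks reflect was not tested. The peaks near Lrrc4c and Ly6c2 are the 2 members in the strongest decile of the WDM-WDO list, and neither was in a CDO list.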
